A study of Mus musculus with 10 samples.

Results

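The vomeronasal receptor gene promoters comprised 346 of the 25152 gene entries (1.38%) for which occupancy around the transcriptional start site (TSS) was deposited. They were chosen by symbol, as the entries named Vmn1r or Vmn2r with a number or carrying an older V1r or V2r symbol. No occupancy value entered this rule, but the family was chosen with earlier results of these data known. Of the 346 entries, 221 (178 symbols) belonged to the V1R class and 125 (118 symbols) to the V2R class. An entry is a row of the deposited table, and 24 symbols had more than 1 entry, up to 6. Only 4 entries carried an older symbol.

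H3K4me2 and H3K27me3 were mapped by ChIP-Seq (sequencing of DNA recovered with an antibody against a histone mark) in whole mouse retinas of embryos (E17.5) and of pups at PN1, PN7 and PN15. Each of the 8 libraries was the only one of its mark and stage, made from at least 20 pooled retinas, so no difference between stages had a replicate and no test was made. The methods of the study describe C57BL/6j mice and rd1/rd1 mutants as a control, whereas the labels name Pde6b (rd1/rd1) for every library, and the embryonic stage is written E17 in the labels. No drug or other treatment was given in the labels. The catalogue numbers of the antibodies are exchanged between the labels and the methods, and the mark of each library was therefore taken from its title. Because whole retinas were used, a mark in few cells and a low level in all cells cannot be told apart.

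Vomeronasal receptors are G protein-coupled receptors of the sensory neurons of the vomeronasal organ, which detect pheromones and other chemical signals in the nasal septum. V1R genes have a coding region without introns and are found in neurons with the G protein subunit Gnai2, whereas V2R genes carry a large extracellular domain in several exons and are found in neurons with Gnao1. Both classes lie in clusters of similar copies, and most vomeronasal neurons express a single V1R, or a V2R of the main families together with one of family C. The retina is not known as a site of their expression. H3K4me2 marks active and poised promoters, and H3K27me3 is the mark set by the Polycomb complex PRC2 at repressed genes.

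The promoters shown here are the 300 bases from 250 before to 50 after the TSS in RefSeq (build GRCm38.p6), printed 5′ to 3′ on the strand of the gene, with each CG dinucleotide in capitals. RefSeq promoters were found for 264 of the 296 symbols. The first group holds V1R genes that the results below turn on. Vmn1r90 had the most H3K27me3 of all members, Vmn1r233 and Vmn1r54 followed, Vmn1r104 was 1 of 14 V1R entries at the class median, and Vmn1r122 was among the highest in H3K4me2. Vmn1r104 and Vmn1r122 held the same base at 49 of the 50 positions after the TSS, and Vmn1r90 and Vmn1r104 at 42, whereas Vmn1r233 and Vmn1r54 shared 16.
Vmn1r90, chr7:14562122-14562421, minus strand: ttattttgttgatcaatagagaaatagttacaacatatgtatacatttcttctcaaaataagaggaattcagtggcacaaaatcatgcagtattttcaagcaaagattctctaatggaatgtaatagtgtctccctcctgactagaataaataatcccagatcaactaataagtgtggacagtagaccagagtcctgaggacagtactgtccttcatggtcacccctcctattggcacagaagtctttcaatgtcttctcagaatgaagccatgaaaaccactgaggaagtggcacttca
Vmn1r54, chr6:90268856-90269155, plus strand: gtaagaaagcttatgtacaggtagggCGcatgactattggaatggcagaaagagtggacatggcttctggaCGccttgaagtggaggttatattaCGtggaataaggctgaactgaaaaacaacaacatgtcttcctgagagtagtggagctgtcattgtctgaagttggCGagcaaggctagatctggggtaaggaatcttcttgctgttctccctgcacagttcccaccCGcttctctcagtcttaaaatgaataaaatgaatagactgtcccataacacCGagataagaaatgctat
Vmn1r233, chr17:20994637-20994936, minus strand: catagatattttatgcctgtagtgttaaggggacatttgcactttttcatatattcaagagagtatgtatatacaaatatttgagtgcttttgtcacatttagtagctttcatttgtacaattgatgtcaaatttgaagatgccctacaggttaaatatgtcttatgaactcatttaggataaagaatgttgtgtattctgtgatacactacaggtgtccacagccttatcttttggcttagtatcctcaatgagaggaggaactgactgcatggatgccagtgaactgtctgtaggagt
Vmn1r104, chr7:20533587-20533886, plus strand: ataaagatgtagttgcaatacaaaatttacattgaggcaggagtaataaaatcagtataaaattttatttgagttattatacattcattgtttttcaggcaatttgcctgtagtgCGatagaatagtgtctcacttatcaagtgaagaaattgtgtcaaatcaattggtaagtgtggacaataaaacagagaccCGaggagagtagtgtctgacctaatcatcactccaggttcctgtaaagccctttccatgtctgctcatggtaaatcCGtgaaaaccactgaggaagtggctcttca
Vmn1r122, chr7:21134079-21134378, minus strand: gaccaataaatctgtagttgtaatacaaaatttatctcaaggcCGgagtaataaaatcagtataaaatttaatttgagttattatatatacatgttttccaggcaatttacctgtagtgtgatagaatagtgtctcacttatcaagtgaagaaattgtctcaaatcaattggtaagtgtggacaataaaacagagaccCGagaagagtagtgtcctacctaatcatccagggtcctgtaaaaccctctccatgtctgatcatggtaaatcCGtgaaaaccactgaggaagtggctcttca

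The second group holds V2R genes. Vmn2r89 and Vmn2r88 are neighbours with high occupancy of both marks for their class, Vmn2r102 had the highest H3K4me2 value, and Vmn2r31 and Vmn2r29 were listed at 0 in 4 of the 8 libraries. Vmn2r88 and Vmn2r89 shared a run of 129 bases, shifted relative to their TSS. Vmn2r29 has a pair of RefSeq promoters, and which of them the deposited entry describes is not given in the sources used here. The first holds 23 CG dinucleotides, more than any other member, and the second holds none and matched Vmn2r31 at 46 of the 50 positions after the TSS.
Vmn2r89, chr14:51451712-51452011, plus strand: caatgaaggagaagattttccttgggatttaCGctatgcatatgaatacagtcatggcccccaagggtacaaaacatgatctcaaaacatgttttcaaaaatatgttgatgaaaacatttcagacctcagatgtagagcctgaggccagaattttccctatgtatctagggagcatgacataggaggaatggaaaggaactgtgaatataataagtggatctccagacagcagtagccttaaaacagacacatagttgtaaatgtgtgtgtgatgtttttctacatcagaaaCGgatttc
Vmn2r88, chr14:51410751-51411050, plus strand: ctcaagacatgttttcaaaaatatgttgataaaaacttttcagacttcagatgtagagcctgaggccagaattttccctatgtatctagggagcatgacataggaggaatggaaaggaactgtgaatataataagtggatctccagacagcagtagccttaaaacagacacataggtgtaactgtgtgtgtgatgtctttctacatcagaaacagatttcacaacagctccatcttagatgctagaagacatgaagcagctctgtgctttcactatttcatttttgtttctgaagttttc
Vmn2r102, chr17:19660149-19660448, plus strand: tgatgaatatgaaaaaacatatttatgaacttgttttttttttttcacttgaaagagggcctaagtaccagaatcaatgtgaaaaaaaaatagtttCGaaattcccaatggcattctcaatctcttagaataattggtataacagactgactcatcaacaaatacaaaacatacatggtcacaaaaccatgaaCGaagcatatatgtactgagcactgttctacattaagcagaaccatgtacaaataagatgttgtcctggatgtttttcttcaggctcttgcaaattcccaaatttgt
Vmn2r31, chr7:7399578-7399877, minus strand: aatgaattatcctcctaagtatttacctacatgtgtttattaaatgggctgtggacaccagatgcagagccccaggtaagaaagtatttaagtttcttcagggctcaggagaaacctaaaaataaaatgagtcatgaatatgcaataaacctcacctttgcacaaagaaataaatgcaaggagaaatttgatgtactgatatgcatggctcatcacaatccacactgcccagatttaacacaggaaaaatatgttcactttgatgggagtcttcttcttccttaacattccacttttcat
Vmn2r29, chr7:7278240-7278539, minus strand: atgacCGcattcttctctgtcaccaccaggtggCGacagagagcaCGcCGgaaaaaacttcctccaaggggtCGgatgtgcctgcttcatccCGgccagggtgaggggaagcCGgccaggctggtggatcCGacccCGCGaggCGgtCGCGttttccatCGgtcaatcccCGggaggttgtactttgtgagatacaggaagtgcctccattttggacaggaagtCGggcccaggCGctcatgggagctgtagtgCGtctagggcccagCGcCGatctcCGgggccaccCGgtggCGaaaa
Vmn2r29, chr7:7247279-7247578, minus strand: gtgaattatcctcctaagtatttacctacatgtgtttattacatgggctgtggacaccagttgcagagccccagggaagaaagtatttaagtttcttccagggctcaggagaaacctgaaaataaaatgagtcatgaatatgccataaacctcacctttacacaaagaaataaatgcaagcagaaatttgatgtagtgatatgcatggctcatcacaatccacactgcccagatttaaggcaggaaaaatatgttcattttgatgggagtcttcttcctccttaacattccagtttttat

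Few CG dinucleotides and a low GC content were common to these promoters. The median number of CG dinucleotides was 1 in the 152 V1R promoters and 1 in the 113 V2R promoters, against 7 over all 32851 RefSeq promoters of the same length. The ratio of observed to expected CG had a median of 0.117 in V1R and 0.0957 in V2R, close to the 0.107 of the 948 olfactory receptor promoters and below the 0.384 of all promoters. The V1R and V2R promoters differed in the motifs searched on both strands. The letters TATAAA were found in 46.1% of V1R and 22.1% of V2R promoters, against 41.0% of olfactory receptor and 13.6% of all promoters. CCCNNGGG was found in 0.658% of V1R promoters, which is 1 promoter, and in 20.4% of V2R promoters, against 3.06% of olfactory receptor and 13.7% of all promoters. TAATTA was found in 9.21% of V1R, 17.7% of V2R, 18.6% of olfactory receptor and 5.29% of all promoters. These searches describe letters in a window and do not show that a factor binds there.

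Neither class showed accumulation of H3K4me2 of the kind found at most TSS. The deposited value is the normalized occupancy, the number of reads within 2.5 kb of the TSS which the authors scaled to the library's mapped reads and gave without decimals. In the order E17.5, PN1, PN7, PN15, which is kept for every set of 4 values below, the median H3K4me2 occupancy was 2, 4, 0 and 3 in V1R entries. In V2R entries it was 2, 3, 0 and 2. All entries together had medians of 42, 28, 24 and 43. No V1R entry exceeded the all-entry median in any H3K4me2 library, and a single V2R entry did so, Vmn2r102 at PN1. The olfactory receptors, the other large family of chemosensory receptors, had medians of 2, 3, 0 and 2.

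When H3K4me2 was summed over E17.5, PN1 and PN15, the 10th percentile of all entries was a sum of 9, and 10.8% of all entries lay at or below it. At or below that sum were 111 of 221 V1R entries (50.2%, exact binomial 95% interval 43.4 to 57.0) and 77 of 125 V2R entries (61.6%, interval 52.5 to 70.2). Among the olfactory receptors 64.7% did so, and among the 37 taste receptors 59.5%. The keratins and keratin-associated genes, another family not used by the retina, had 31.4% of 102 entries there. These intervals count entries as if they were independent, which near-identical copies are not. The tissue itself was recognisable, since the photoreceptor regulator Crx had H3K4me2 values of 20, 24, 21 and 158 from E17.5 to PN15 at the first of its entries. The erythrocyte gene Hbb-b1 had 4, 5, 0 and 4, and the liver gene Alb had 4, 4, 1 and 0.

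**Figure D1:**
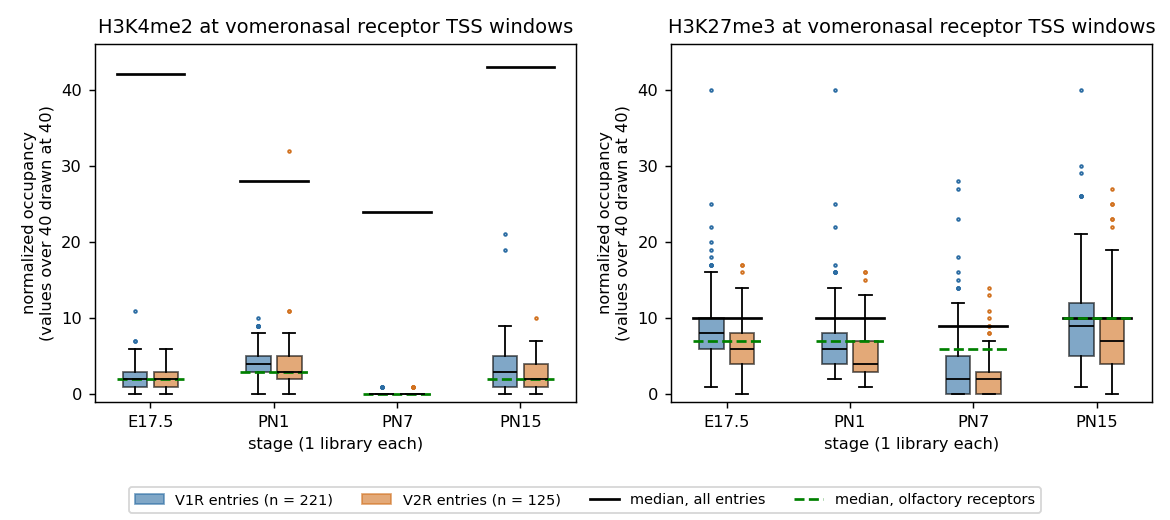
Normalized occupancy (vertical axis, values over 40 drawn at 40) of H3K4me2 (left) and H3K27me3 (right) at V1R (blue, n = 221) and V2R (orange, n = 125) entries at 4 stages, with 1 library each. Boxes span the quartiles with the median as a line, whiskers reach the last value within 1.5 box lengths, points are single entries, black lines are all-entry medians and green dashed lines olfactory receptor medians. H3K4me2 boxes lie far below the black lines at every stage, and V1R medians of H3K27me3 lie at or above those of V2R.

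H3K27me3 occupancy was also below the genome-wide level at these promoters. In V1R entries the median H3K27me3 occupancy was 8, 6, 2 and 9, and in V2R entries it was 6, 4, 2 and 7. The all-entry medians were 10, 10, 9 and 10, so both classes were below the middle of the genome at every stage. No member passed the 90th percentile of any H3K27me3 library, which ranged from 56 at PN15 to 80 at PN1, whereas 13.0% of all entries passed it in at least 1 library. Olfactory receptors had medians of 7, 7, 6 and 10, and the keratins 14, 13, 17 and 24. The vomeronasal receptors were thus below the keratins at each of the 4 stages.

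Summed over the 4 stages, H3K27me3 had an all-entry median of 39, which 49.7% of all entries exceeded. Only 24 V1R entries (10.9%, exact binomial 95% interval 7.08 to 15.7) and 12 V2R entries (9.60%, interval 5.06 to 16.2) exceeded it, against 27.5% of olfactory receptors and 74.5% of keratins. In windows of at least 80% unique sequence, as described below, the shares were 17.8% of 90 V1R and 13.0% of 54 V2R entries. In windows of 34 to 38% GC they were 3 of 86 V1R (3.49%) and 5 of 68 V2R entries (7.35%), so that the order of the classes turned on few entries. The V2R median of the sum in those windows was still below that of V1R, at 0.909 times it. Over all members the V2R median of the sum was 0.750 times that of V1R. Means gave the same order, with 8.33, 6.75, 3.32 and 9.37 in V1R and 6.35, 5.10, 2.40 and 7.93 in V2R. For summed H3K4me2 the ratio of the medians was 0.889.

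**Figure D2:**
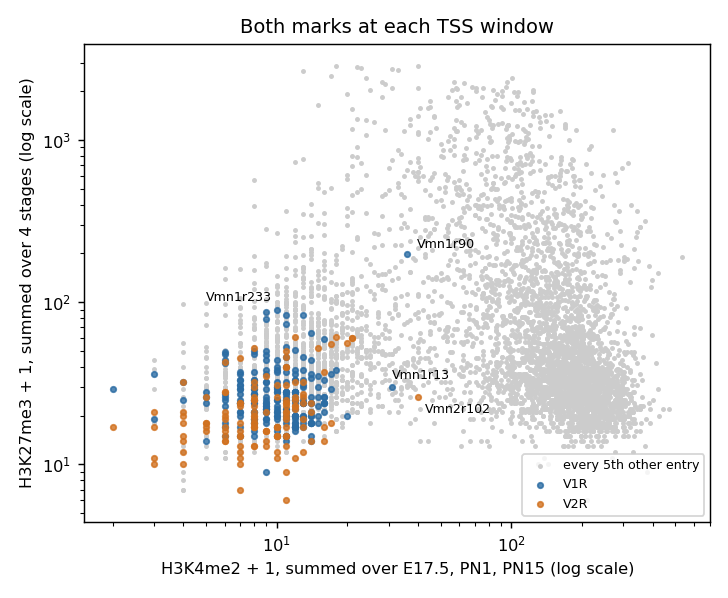
Summed H3K27me3 plus 1 (vertical, log scale) against summed H3K4me2 plus 1 over E17.5, PN1 and PN15 (horizontal, log scale) for V1R (blue) and V2R (orange) entries, with every 5th other entry in grey. The members lie in the lower left, where both sums are low, with Vmn1r90 (196 and 35) apart from the rest.

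Among V1R genes, Vmn1r90 stood alone. Its H3K27me3 occupancy was 54, 66, 27 and 49 from the first stage to the last, the highest V1R value at E17.5, PN1 and PN15. With the value of 1 read estimated for the last 3 libraries and taken as 1 at E17.5, the exact Poisson 95% intervals were 40.6 to 70.5, 52.7 to 82.5, 21.5 to 33.2 and 36.9 to 63.5, which cover counting error only. The sum over the 4 stages was 196, and the next largest of any member was 88. Its H3K4me2 values were 4, 10, 1 and 21, of which those at PN1 and PN15 were the highest V1R values of their libraries. The methods of the study take each TSS from RefSeq for mm9, in a release not used here. The TSS of the RefSeq promoter shown above was found on mm9 chromosome 7 at 15147520, and the TSS of the mm9 gene annotation lies at 15208415, 60.9 kb away. The 5 kb window at the first has a GC content of 36.7% and 87.6% unique sequence, and that at the second 51.2% and 74.1%, where the V1R medians are 37.1% and 82.7%. The nearest coding gene with another name, Gm4745, began 97.5 kb from the first and 36.6 kb from the second.

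The next V1R genes by summed H3K27me3 had values close to or above the genome-wide medians rather than near the strongly marked genes. Vmn1r233, on chromosome 17 (mm9 chr17:21130691-21131650, minus strand), had 20, 22, 28 and 18. Its PN7 value was the highest V1R value of that library, with an interval of 22.6 to 34.6. Vmn1r54, on chromosome 6 (chr6:90219100-90220047, plus strand), had 17, 25, 14 and 30. Vmn1r40, on the same chromosome (chr6:89664197-89665129, plus strand), had 17, 17, 23 and 26. These 3 genes were above the all-entry median in every H3K27me3 library. Vmn1r239 had 25, 16, 16 and 26 at its first entry and 16, 5, 1 and 10 at its second. Vmn1r41, also on chromosome 6, had 22, 16, 14 and 26 at its first entry, and its second entry held the same 8 values as that of Vmn1r239. In all, 43 members shared all 8 values with another member, and whether such entries describe 1 window is not given in the sources used here.

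H3K4me2 was below the all-entry median of each library at all 6 of these V1R genes, with the largest sum at Vmn1r90. Vmn1r233 had H3K4me2 values of 2, 2, 0 and 5, Vmn1r54 had 1, 4, 1 and 3, and Vmn1r40 had 3, 3, 0 and 4. After Vmn1r90, the largest summed H3K4me2 of the class was at Vmn1r13 (mm9 chr6:57159852-57160754), with 2, 9, 0 and 19 and a PN15 interval of 11.4 to 29.7. Its H3K27me3 values were 7, 7, 5 and 10. The third in order was Vmn1r122 on chromosome 7, with H3K4me2 values of 7, 9, 0 and 3 in a window of which 15.9% was unique sequence. The interval of its PN1 value, 4.54 to 17.4, lay just above the class median of 4. That value enters the sum by which the gene was named. Of the 14 V1R entries at the class median of summed H3K27me3, which was 24, Vmn1r104 came first by name, with H3K4me2 of 3, 1, 0 and 3 and H3K27me3 of 6, 8, 0 and 10 at its first entry. Only 1.21% of its window was unique sequence, and its 0 at PN7 is one of those described below for such windows.

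The V1R genes divide into clades of related sequence, which could be read from the synonyms of 124 symbols. Clades a and b, whose 15 genes all lie on chromosome 6, had the most H3K27me3 among the clades with more than 2 genes. Over E17.5, PN1 and PN15 their summed H3K27me3 had medians of 39 in clade a (n = 9) and 41 in clade b (n = 6). The 29 genes of clade c, also on chromosome 6 but in other clusters, had a median of 19. Clade d (n = 19) had 20, clade e (n = 13) had 17 and clade g (n = 12) had a mean of 18.3, while clade f (n = 5) had 28, clade h (n = 19) had 27 and clade i (n = 9) had 26. The pair of clade j genes had a median of 41.5, with 54 at Vmn1r85 and 29 at Vmn1r89, and the lone clade k gene Vmn1r87 had 50. The ranges overlapped, from 23 to 72 in clades a and b together and from 8 to 60 in the others.

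Of the 15 entries of clades a and b, 12 were above the all-entry median of H3K27me3 summed over 4 stages. So were 9 of the 109 entries of the other clades and 49.7% of all entries. Medians by stage were 12, 10, 8 and 16 in clades a and b, and 7, 6, 4 and 10 in the other clades. Median H3K4me2 was nearly the same in both groups, 2, 4, 0 and 3 in clades a and b and 2, 4, 0 and 2 in the others. The GC content of the windows moved with the clades in part. It had a median of 39.1% in clade a and 40.1% in clade b, against 35.6% in clade c and 35.3% in clade e, but also 39.2% in clade i and 38.7% in clade h. Its part in the difference was not tested.

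**Figure D3:**
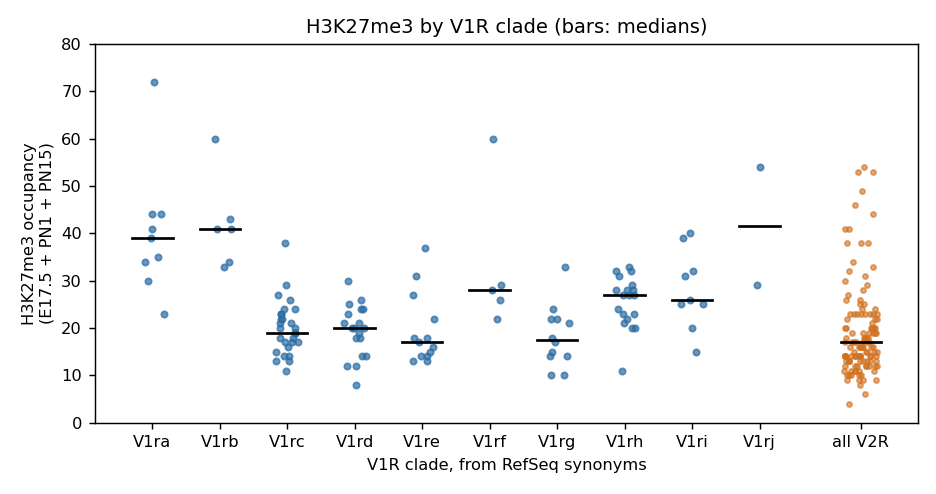
H3K27me3 occupancy summed over E17.5, PN1 and PN15 (vertical) for each V1R gene by clade, with all 125 V2R entries at the right. Points are entries and bars are medians, 39 and 41 in clades V1ra and V1rb and at most 28 in clades V1rc to V1ri.

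Positions in mm9 were found for 285 of the 296 symbols, in 25 clusters when neighbours were joined over gaps of up to 1 Mb, and 15 clusters of 5 or more genes held 267 symbols. The median distance between neighbouring TSS was 62.5 kb, and 1 pair lay within 5 kb, with a single annotated position for each symbol. The 6 symbols with 6 entries each held the same 6 sets of H3K27me3 values, and whether these describe the same windows is not given in the sources used here. The chromosome 6 cluster from 89664197 to 90220047 held 16 V1R genes with a median summed H3K27me3 (E17.5, PN1 and PN15) of 41. The 26 V1R genes of the cluster from 56906460 to 58422872 on the same chromosome had 19. The chromosome 13 cluster with 31 V1R genes had 27, and the largest V1R cluster, 44 genes on chromosome 7 from 20686507 to 24840710, had 19.5.

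Among V2R genes no promoter stood as far apart in H3K27me3 as Vmn1r90. The largest sums were those of Vmn2r117 (mm9 chr17:23596642-23616564) with values of 16, 16, 6 and 22, and of Vmn2r56 (chr7:13279347-13318454) with 7, 15, 11 and 27, both with a sum of 60. At Vmn2r56 the interval at E17.5, 2.81 to 14.4, did not overlap that at PN15, 18.4 to 38.4. This compares a pair of libraries and not animals, and it takes 1 read as 1 unit at E17.5. Vmn2r89 had 17, 11, 6 and 25 at both of its entries, which held the same 8 values, and Vmn2r88, its neighbour on chromosome 14, had 13, 10, 14 and 18. Vmn2r121 on the X chromosome had 13, 16, 8 and 17, and Vmn2r80 on chromosome 10 had 13, 8, 7 and 23. Vmn2r83, with 12, 9, 13 and 17, had the same sum as Vmn2r80. The PN15 value was the highest of the 4 in 48% of all V2R and 43.9% of all V1R entries, against 27.2% of all entries. It enters the sum by which these genes were chosen.

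Vmn2r102 (mm9 chr17:19797363-19831712, plus strand) gave the largest H3K4me2 value of any vomeronasal receptor, and only at PN1. The values of this mark were 2, 32, 1 and 5 over the stages. The interval of the PN1 value was 22.3 to 44.9, and the next highest V2R value in that library was 11. Its H3K27me3 values of 10, 4, 2 and 9 were those of an ordinary member. Vmn2r89 followed in summed H3K4me2 with 6, 11, 1 and 3, and Vmn2r88 with 5, 4, 0 and 10, so this pair on chromosome 14 was among the highest V2R genes in both marks. The single window of Vmn2r102 was 91.5% unique sequence, and nothing in the files repeats the PN1 measurement.

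The family C receptors, which are expressed together with other V2R genes, had values within the range of those genes. Vmn2r1 to Vmn2r7, in 1 cluster on chromosome 3, had a median summed H3K27me3 over E17.5, PN1 and PN15 of 17 with a range of 10 to 19, and the other 118 V2R entries had 16.5 with a range of 4 to 54. Median H3K4me2 by stage was 2, 2, 0 and 2 in family C and 2, 4, 0 and 2 in the others. Vmn2r1, with 5, 5, 4 and 4, was also 1 of 4 V2R entries at the class median of summed H3K27me3, which was 18. Vmn2r7 had the smallest sum of the family, with 2, 5, 1 and 3, and its RefSeq and annotated TSS differ by 125163 bp.

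Several members were listed at 0 in as many as 4 of the 8 libraries, and none in all 8. Vmn1r223 had H3K4me2 of 0, 9, 0 and 0 and H3K27me3 of 14, 6, 0 and 16. Vmn2r29 had H3K4me2 of 3, 0, 0 and 0 and H3K27me3 of 4, 5, 0 and 10. Vmn2r31 had 1, 0, 0 and 0 and 6, 3, 0 and 7. The second entry of Vmn2r35 had 2, 0, 0 and 0 and 3, 5, 0 and 2. All 4 were thus at 0 for both marks at PN7, and 10 members had a value above 0 in every library.

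The zeros at PN7 followed the repeated sequence of the windows. H3K27me3 was listed at 0 at PN7 in 84 V1R entries (38%) and 41 V2R entries (32.8%), against 3.70% of all entries and 1.04% of olfactory receptors. At E17.5, PN1 and PN15 no V1R entry was at 0, and 1 V2R entry was at 0 at E17.5 and 1 at PN15. For each gene the share of 36-base words of the 5 kb window that occur once in mm9 was counted. The median share was 82.7% in V1R and 78.2% in V2R windows, against 93.0% for olfactory receptors and 96.8% for a sample of other genes. Of the 17 single-entry members with under 10% unique words, all 17 were at 0 at PN7, although their E17.5 values ranged from 3 to 14 and their PN15 values from 2 to 10. Of those with 10 to 50% unique words 25 of 32 were at 0, of those with 50 to 80% 10 of 65, and of those with at least 80% 0 of 144.

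The rank correlation of H3K27me3 with the share of unique words was 0.70 at PN7 in V1R (n = 149 genes) and 0.70 in V2R (n = 109). In the other H3K27me3 libraries it was between -0.09 and 0.14. These points share a library, and genes of a cluster share sequence. The methods of the study state that reads with several positions were left out and do not separate the libraries. A listed 0 stood for at most 1 read at PN7 for H3K27me3, where 1 unit of occupancy held about 3.2 reads. Genes with several entries followed the same order, since 58 of the 62 V1R entries of such genes were at 0 at PN7, with medians of 9, 6, 0 and 7.50 by stage. These entries are not independent, since the 6 symbols with 6 entries each repeat the same H3K27me3 values. In windows of at least 80% unique words the V1R medians of H3K27me3 were 7, 6, 5 and 10 and the V2R medians 6, 4, 3 and 7.

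**Figure D4:**
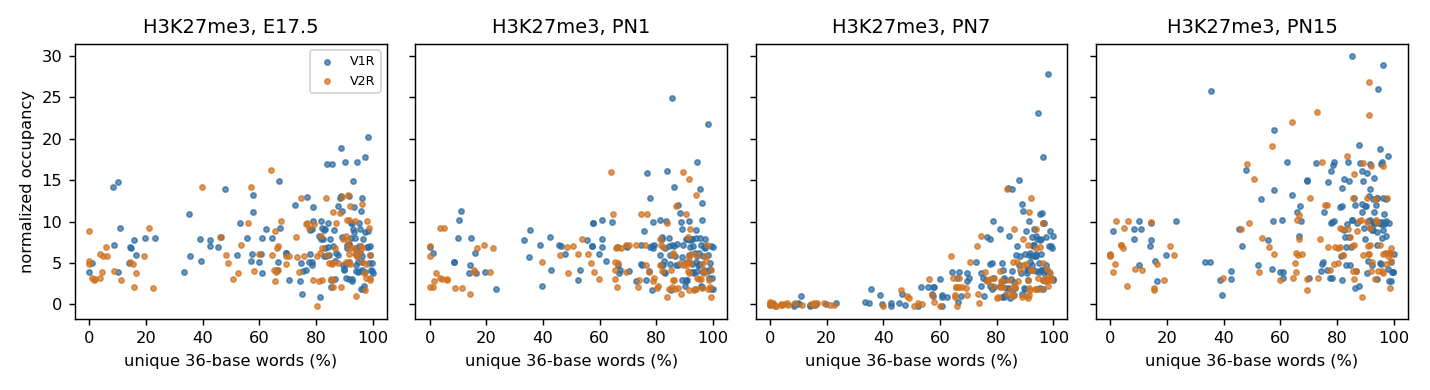
H3K27me3 occupancy (vertical, points spread by up to 0.25) against the percent of unique 36-base words in the 5 kb window (horizontal) for single-entry V1R (blue, n = 149) and V2R (orange, n = 109) genes, with 1 panel per stage. At PN7 the windows with few unique words lie at 0, and at the other 3 stages they do not.

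H3K4me2 at PN7 was listed at 0 in 97.3% of V1R and 96.0% of V2R entries, against 19.5% of all entries. There the olfactory receptors were nearly as often at 0 (89.6%), and members with at least 80% unique words also had a median of 0. The value of 1 read could not be resolved for this library, so how many reads a listed 0 may hold is not known.

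Between E17.5 and PN15 the median difference in H3K27me3 was small in both classes, and more entries were at least 2-fold higher than lower. The median log2 ratio of PN15 to E17.5, with 1 added to each value, was 0.14 in V1R and 0.22 in V2R, against 0.00 over all entries and 0.51 in olfactory receptors. It was 0.32 in the 159 V1R entries of symbols with a single entry and -0.44 in the 62 of symbols with several. In part those 62 repeat the same values. At least 2-fold higher at PN15 were 30 V1R entries (13.6%) and 22 V2R entries (17.6%), against 12.5% of all entries. At least 2-fold lower were 19 V1R entries (8.60%) and 10 V2R entries (8%), against 16.0% of all entries. Olfactory receptors were more often higher (25.3%) and less often lower (1.90%). The share of higher entries depended on which entries were counted. In windows of at least 80% unique sequence 20 of 90 V1R entries (22.2%) were higher and 4 (4.44%) lower, and 11 of 54 V2R entries (20.4%) were higher and 2 (3.70%) lower. In such windows 97 of 931 sampled other genes were higher and 155 (16.6%) lower, and 213 of 820 olfactory receptors were higher and 19 (2.32%) lower. With 1 entry per symbol 30 of 178 V1R genes (16.9%) were higher and 8 (4.49%) lower, against 12.1% and 16.1% of all symbols. In windows of 34 to 38% GC 17 of 86 V1R entries (19.8%) were higher and 5 lower, and 7 of 68 V2R entries were higher and 5 (7.35%) lower, so that the V2R share of higher entries was below that of all entries. In these windows 130 of 441 olfactory receptors were higher and 7 lower, and of the 18 sampled other genes 2 were higher and 0 lower. Where the larger value had to be at least 10, a filter that an entry can pass through its higher stage alone, 27 of 126 V1R entries were higher and 11 lower, and 13 of 43 V2R entries were higher and 1 lower, against 13.7% higher and 18.8% lower among all entries. With a pseudocount of 5, 9 V1R entries (4.07%) were higher and 8 lower, and 7 of 125 V2R entries were higher and 2 lower, against 5.59% and 9.26% of all entries. For H3K4me2 the median log2 ratio was 0.26 in V1R and 0.00 in V2R, against 0.13 over all entries, at values of a few reads. It was 0.00 in V1R entries of symbols with a single entry, whose median was 2 at both stages, whereas in those of symbols with several entries the median was 2 at E17.5 and 5 at PN15.

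The GC content of the window moved with H3K27me3 within both classes. Windows of V1R genes had a median GC content of 37.1% and those of V2R genes 34.7%, against 36.6% for olfactory receptors and 48.3% for other genes. The rank correlation of GC content with H3K27me3 was 0.37, 0.38 and 0.46 at E17.5, PN1 and PN15 in V1R and 0.32, 0.29 and 0.42 in V2R, with 0.15 in both at PN7. It was between 0.53 and 0.63 in 970 olfactory receptors. The points share their library and their clusters. The order of the classes depended on GC content. Between 34 and 36% GC the mean H3K27me3 summed over E17.5, PN1 and PN15 was 21.2 in V1R (SE over genes 1.73, n = 32) and 16.8 in V2R (SE 0.872, n = 42). Between 36 and 38% it was 20.4 (SE 0.784, n = 54) and 25 (SE 2.09, n = 26), so that V2R was the higher there. Below 34% the means were 16.6 and 16, and from 38% upwards 30.9 and 26.8. The class order thus differed between GC ranges, which was not tested.

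**Figure D5:**
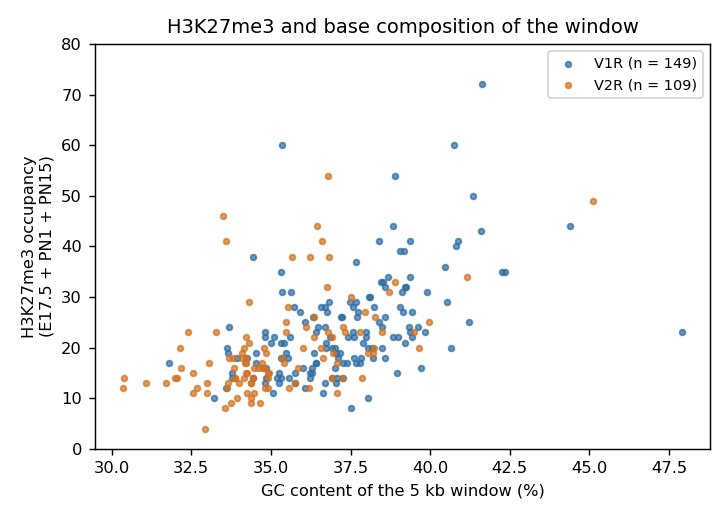
H3K27me3 occupancy summed over E17.5, PN1 and PN15 (vertical) against GC content of the 5 kb window in percent (horizontal) for V1R (blue, n = 149) and V2R (orange, n = 109) genes. Values are higher at higher GC content in both classes, and V2R genes lie more to the left.

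The other genes of vomeronasal neurons were set beside the receptors from a list of 27 symbols, of which 25 were measured in 33 entries. The H2-M genes, major histocompatibility genes expressed with V2R receptors, had more H3K27me3 than the receptors. All 9 were above the all-entry median of the sum, against 49.7% of all entries, with sums of 43 to 103. Their medians by stage were 18, 17, 15 and 26. At or below the 10th percentile of H3K4me2 were 2 of 9, against 10.8% of all entries. H2-M10.6 had H3K27me3 values of 28, 25, 22 and 28. The 6 formyl peptide receptor entries include vomeronasal receptors for inflammation-linked peptides. Above the all-entry median of summed H3K27me3 were 2 of these 6, against 49.7% of all entries. These were Fpr1, with 24, 20, 25 and 23, and Fpr2, with 31, 16, 19 and 22, while the vomeronasal Fpr-rs3 had 7, 3, 3 and 10.

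Gnai2, Gnao1 and the first Trpc2 entry had more H3K4me2 than the receptors. The summed H3K4me2 of Omp and of the second Trpc2 entry lay within the range of the receptors. Gnai2, the G protein subunit of V1R neurons that many tissues use, had H3K4me2 values of 109, 78, 90 and 64 and H3K27me3 values of 7, 7, 9 and 6. Gnao1, the subunit of V2R neurons and a common neuronal gene, had H3K4me2 of 75, 46, 83 and 70 and H3K27me3 of 21, 43, 16 and 20. Trpc2, the channel of vomeronasal transduction, had 97, 60, 19 and 102 at the first of its entries and 2, 7, 0 and 5 at its second. Omp, the olfactory marker protein gene, had low H3K4me2 values of 4, 7, 2 and 5 and H3K27me3 values of 15, 4, 11 and 13. The regulators Bcl11b, Ebf1, Emx2, Lhx2 and Meis2 were above the all-entry median of summed H3K27me3 and above the 10th percentile of summed H3K4me2, as in Ebf1 with H3K4me2 of 69, 41, 27 and 34 and H3K27me3 of 187, 239, 249 and 150.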

How the data were processed

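Per the methods of the study and the submitters' processing notes, Bowtie 0.12.4 was used by the authors for mapping to mm9. Reads with several positions were left out, each read was placed at the midpoint of an assumed fragment of 190 bp, and the reads up to 2.5 kb from a RefSeq TSS were added up. The deposited table holds scores. Each score is such a total after scaling by the authors to the library's mapped reads, given as a whole number, so no count model was used. Read length is not given in the sources used here. Of 10 samples, 2 have no column in the table (H3K4me2 in rd1/rd1 at PN30 and anti-GFP) and were not analysed here. The authors' comparisons were not used.

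Here entries were selected by symbol and described by medians and by shares with exact binomial 95% intervals. Libraries were single, so no p-value was computed. H3K4me2 was summed without PN7. The value of 1 read was estimated from the pattern of the whole numbers in 5 libraries (0.313 to 0.946) and taken as 1 in the other 3 libraries, and exact Poisson intervals rest on it and cover counting error only. The sum of all values ranged from 590366 to 1200594 per library. Windows were placed at the TSS of the mm9 gene annotation, after comparison with RefSeq promoters found by exact match in mm9 (within 2.5 kb for 97.6% of 125 V1R and 97.9% of 97 V2R genes), and 5 symbols farther away were left out of the window results. Named genes were the 6 largest in H3K27me3 and the 3 largest in H3K4me2 of each class, the entry nearest the class median (ties by name), those at 0 in the most libraries, family C and a list of vomeronasal neuron genes. The members and lists were chosen with earlier results of these data known. The steps were tested on simulated data. Python 3.11.15 was used with numpy 2.4.6, pandas 2.3.3, scipy 1.17.1, numba 0.67.0 and matplotlib 3.10.9.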

Additional observations from a re-analysis of the deposited data

How the results depend on the processing

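No paired analysis was possible because each mark and stage had 1 library. No single result changed sign, but in windows of 34 to 38% GC the class order of 1 pair of shares turned on few entries. There 3 of 86 V1R entries (3.49%) and 5 of 68 V2R entries (7.35%) were above the all-entry median of H3K27me3. With 1 entry per symbol, 57.3% of V1R entries were at or below the 10th percentile of H3K4me2 and 30 of 178 (16.9%, against 13.6% of all V1R entries) were at least 2-fold higher and 8 lower in H3K27me3 at PN15 than at E17.5, and counting identical values once left 12 lower. In windows at least 80% unique, 17.8% of V1R entries were above the all-entry median of H3K27me3, 62.2% were at or below the 10th percentile of H3K4me2, 20 of 90 V1R entries (22.2%) were higher and 4 lower, and 11 of 54 V2R entries (20.4%, against 17.6% of all V2R entries) were higher and 2 lower. Leaving PN7 out as well gave 18.9% and 62.2%. In windows of 34 to 38% GC the V1R shares were 3.49% and 58.1%, with 17 of 86 V1R entries (19.8%) higher and 5 lower, 7 of 68 V2R entries higher and 5 lower (130 and 7 of 441 olfactory receptors), and a ratio of V2R to V1R medians of H3K27me3 of 0.909. A pseudocount of 5 gave 9 higher and 8 lower in V1R and 7 higher and 2 lower in V2R, and a larger value of at least 10 gave 27 higher and 11 lower of 126 in V1R and 13 higher and 1 lower of 43 in V2R. Rescaling to the same median left 6 V2R entries lower. The last 2 window settings (34 to 38% GC, and PN7 left out of unique windows) were chosen after seeing the data. Subsets hold fewer entries, which lowers their counts, and otherwise the cause was not tested. Settings with only Vmn symbols, or with PN7 left out of H3K27me3 and added to H3K4me2, moved no result beyond its interval or by 1.5 times.

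Occupancies were low in reads and no replicate error was available. The intervals given cover counting error only, and in 3 libraries, H3K4me2 at PN7 and PN15 and H3K27me3 at E17.5, they take 1 read as 1 unit because its value was not resolved.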

Other observations

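Beyond these comparisons, the members agreed little in rank from library to library. Rank correlations between H3K27me3 libraries over all 346 entries ranged from 0.10 (E17.5 and PN7) to 0.48 (PN7 and PN15), and between H3K4me2 libraries from -0.06 to 0.10. These entries share sequence, and the libraries differ in depth. The spread between entries, as variance over mean in reads (1 read taken as 1 unit where its value was not resolved) and without the highest entry, differed from library to library. For H3K4me2 in V1R it was 1.13 at PN1 and 1.99 at PN15, and for H3K27me3 in V1R it was 1.71, 2.09 and 3.31 in the E17.5, PN1 and PN15 libraries, where counting alone would give 1. At PN7 the H3K27me3 value was 17.6 in V1R and 9.66 in V2R, with the repeated windows at 0.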
